A study of Mus musculus with 48 samples.

Results

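Sorted pancreatic α and β cells collected at ZT16, in the early night, were compared with those collected at ZT4, in the early day (ZT, zeitgeber time, hours after lights on). The comparison holds 16 of the 48 libraries of the series, namely every library whose title names one of these times, 8 at ZT16 and 8 at ZT4. At each time there are 2 libraries of α cells and 2 of β cells from doxycycline-treated mice (DOX), and as many of each from controls (CTR). The times lie 12 h apart, and the mice ate only at night, so ZT16 falls within feeding and ZT4 within the early fast. Each library started from 300 ng of polyA RNA and was made with a kit that does not mark the strand, so reads of overlapping antisense genes cannot be told apart.

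All animals, at both times and in both treatments, were males aged 6 to 8 weeks and carried the same alleles, namely ProGcg-Venus and RIP-Cherry, the PER2::Luc fusion, and Insulin-rtTA together with TET-DTA. Venus and Cherry are fluorescent proteins under the proglucagon and the rat insulin promoter, and the cells were separated by FACS. Insulin-rtTA with TET-DTA makes a diphtheria toxin chain in insulin-expressing cells when doxycycline is present, so the β cells of the DOX groups are those that were left after the toxin. DOX mice drank 300 mg of doxycycline in water with 2% sucrose, and CTR mice drank sucrose water without the drug. Doxycycline was not given to mice without these transgenes, and no group lacked the PER2::Luc fusion, which joins luciferase to the PER2 clock protein. Lights were on for 12 h and off for 12 h, and food was restricted to the night for 10 days before sampling. Some of the animals were kept on inverted light and feeding cycles for 2 weeks before sampling. The labels do not say which libraries came from them, so clock time and the inverted schedule cannot be told apart here. The labels do not say that the 2 libraries of a group came from separate animals, so p-values measure the spread between these libraries, which may be partly technical.

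The circadian clock of mammalian cells is a loop of transcription. The activators ARNTL (BMAL1) with CLOCK or NPAS2 bind E-boxes in the genes of their own repressors, the period and cryptochrome proteins. REV-ERB repressors (Nr1d1, Nr1d2) and ROR activators act on ROR elements, among them those of Arntl, and PAR bZIP factors such as DBP, TEF and HLF act on D-boxes. In islets, the clock is known for its part in the daily timing of hormone secretion, and it is set both by light through the brain and by meals and body temperature.

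Library totals were 22.8 to 61.8 M (M, 1000000) estimated counts at ZT16 and 19.9 to 69.9 M at ZT4. Of the whole values up to 20, 99.8 to 100% were even, so small counts moved in steps of 2, the reason for which was not tested. Sampling error at low counts may thus be larger than the totals show. The earlier run held replicate 1 of every group at these times and the later run replicate 2, with totals of 43.5 to 69.9 M in the later run and 19.9 to 28.6 M in the earlier one. Glucagon (Gcg) took 24.8 to 35.9% of the counts in α libraries at ZT16 and 29.2 to 32% at ZT4. The insulin gene Ins2 took 16.5 to 20.1% in β libraries at ZT16 and 17.6 to 26.4% at ZT4, and at most 0.213% in any α library. No library went against its label by these hormones. In the later run every title ends in 7 at ZT16 and in 6 at ZT4, a number that the labels do not explain, and there it cannot be told apart from time.

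Of 16436 genes tested over all 16 libraries, 869 were higher at ZT16 (5.29%) and 963 were lower (5.86%) at an adjusted p under 0.05. Fits were made with edgeR's quasi-likelihood test with Benjamini-Hochberg adjustment, with the 4 conditions (cell type by treatment) and the 2 runs as blocks. Among these calls, 37 genes were at least 2-fold higher and 134 at least 2-fold lower, and the median log2 fold change of all genes tested was -0.01. Libraries that share cell type, treatment and run form 8 pairs. In 1147 of the 1832 genes called (62.6%), ZT16 lay on the same side of ZT4 in all 8 pairs. Of all genes tested 1601 did so (9.74%), those 1147 among them. The calls come from a fit to these same pairs, so both shares are a description only. Within single runs, 649 genes were called in the earlier and 7 in the later one. Every mouse carried both reporters, and the labels do not say whether the α and the β library of 1 time, treatment and run came from the same animals, so these 16 libraries may not be independent. With each such α and β library joined as a random block (limma-voom, added after the data were seen), 1254 genes were called, against 2409 by limma-voom without that block. The 8 clock genes named in the next paragraph as called passed with it too. From bulk libraries, fewer cells that use a gene and less RNA per cell cannot be told apart.

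Among clock genes, the period genes Per1, Per2 and Per3 were higher at ZT16, and the activators Npas2 and Arntl were lower. Of 26 clock genes tested, 6 rose (Per1, Per2, Per3, Cry2, Nr1d2, Tef), 2 fell (Npas2, Arntl) and 18 did not pass the test. Among all genes 5.29% rose and 5.86% fell, and the 2 of 26 that fell are near that share. The list was not tested as a set, and it was chosen with earlier results of these data known. The mean log2 level of stellate, macrophage or acinar markers was also used as a covariate. The counts of called activators, of period and cryptochrome genes and of REV-ERB and DEC genes were the same as without it. The PAR bZIP list, which holds Tef, is not among these lists.

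Per2 (ENSMUSG00000055866.9, chr1:91415982-91459324, minus strand, GRCm38) codes for a repressor that is known to respond to meals and temperature as well as to the clock. In α cells it stood at 48.8 and 39.3 CPM (counts per 1000000 counts of the library) in ZT16 CTR libraries and 42.4 and 51.9 in ZT16 DOX libraries, against 14.4 and 9.54 in ZT4 CTR and 8.56 and 12.3 in ZT4 DOX libraries. In β cells it stood at 77.0 and 56.8 in ZT16 CTR and 42.6 and 41.6 in ZT16 DOX libraries, against 15.2 and 13.9 in ZT4 CTR and 13.5 and 20 in ZT4 DOX libraries. Here and below, the earlier run comes first in each pair of replicates. No ZT16 library reached down to any ZT4 library, and the ZT16 CTR β libraries were the highest. The log2 fold change was 1.90 ± 0.15 (SE, edgeR adjusted p = 1.48e-05), with 2.00 in the earlier and 1.80 in the later run.

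Per3 (ENSMUSG00000028957.12, chr4:151003652-151044665, minus strand), another period repressor, differed more. Its α levels were 26.5 and 16.5 CPM in ZT16 CTR and 18.9 and 43.1 in ZT16 DOX libraries, against 7.76 and 6.70 in ZT4 CTR and 6.49 and 4.90 in ZT4 DOX libraries. Its β levels were 18.8 and 11.1 in ZT16 CTR and 10.3 and 15.1 in ZT16 DOX libraries, against 1.72 and 6.81 in ZT4 CTR and 1.81 and 1.87 in ZT4 DOX libraries. Every ZT16 library lay above every ZT4 library, and among the ZT4 β libraries the CTR one of the later run was high. The log2 fold change was 2.14 ± 0.28 (adjusted p = 8.33e-04).

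Per1, a period gene that hormones and light also induce, spanned 54.6 to 129.5 CPM at ZT16 (median 73.6) and 21.9 to 47.8 CPM at ZT4 (median 38.5), with no overlap. Per2 and Per1 had been taken as markers of the labelled time, and both separated the 8 libraries of ZT16 from the 8 of ZT4. Per1 rose by 1.03 ± 0.19 on the log2 scale (adjusted p = 0.00516), with 0.93 in the earlier and 1.07 in the later run. Cry2, a cryptochrome repressor, rose by 0.44 ± 0.09 (adjusted p = 0.0102), and its range of 69.2 to 157.0 CPM at ZT16 overlapped that of 69.2 to 114.4 CPM at ZT4. Cry1 had a log2 fold change of 0.48 ± 0.18 that missed the threshold (adjusted p = 0.107). Ciart, a further repressor of the activators, had 0.63 (adjusted p = 0.35), and its β value at ZT16 was 57.3 CPM in the earlier CTR library against 2.88 to 9.05 CPM in the others.

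Npas2 (ENSMUSG00000026077.15, chr1:39193731-39363236, plus strand), the partner that can stand in for CLOCK, gave the largest change of any clock gene, lower at ZT16. In α cells it had 0.327 and 0.0411 CPM in ZT16 CTR and 0.0867 and 0.0976 in ZT16 DOX libraries, against 4.32 and 1.40 in ZT4 CTR and 1.99 and 1.05 in ZT4 DOX libraries. In β cells it had 1.15 and 0.327 in ZT16 CTR and 0.835 and 0.445 in ZT16 DOX libraries, against 11.0 and 2.74 in ZT4 CTR and 9.69 and 4.95 in ZT4 DOX libraries. Within each cell type all ZT16 libraries were below all ZT4 libraries, and at ZT4 the earlier run was the higher in every pair. The log2 fold change was -3.57 ± 0.25 (adjusted p = 6.98e-06), -3.59 in the earlier and -3.60 in the later run.

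Arntl (ENSMUSG00000055116.8, chr7:113207465-113314126, plus strand), the common partner of CLOCK and NPAS2, was also lower. Its α levels were 4.91 and 5.43 CPM in ZT16 CTR and 4.51 and 7.13 in ZT16 DOX libraries, against 18.6 and 11.8 in ZT4 CTR and 13.1 and 13.7 in ZT4 DOX libraries. Its β levels were 14.2 and 9.70 in ZT16 CTR and 7.33 and 6.33 in ZT16 DOX libraries, against 19.8 and 9.64 in ZT4 CTR and 22.2 and 14.9 in ZT4 DOX libraries. The times did not overlap in α cells. In β cells they did, since the later CTR pair was nearly level. Arntl fell by 1.08 ± 0.20 on the log2 scale (adjusted p = 0.00459), with -1.38 in the earlier and -0.82 in the later run. For Clock itself the log2 fold change was 0.14 (adjusted p = 0.328), and the ROR activators Rora and Rorb had -0.07 and -0.43, neither past the threshold.

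Among the repressors that act on ROR elements, Nr1d2 (REV-ERBβ) had α levels of 86.5 and 87.4 CPM in ZT16 CTR and 92.6 and 84.5 in ZT16 DOX libraries, against 37.0 and 67.7 in ZT4 CTR and 41.3 and 37.3 in ZT4 DOX libraries. The α libraries of the times did not overlap, while in β cells a ZT4 CTR library reached 124.2 CPM, above 3 of the 4 ZT16 libraries. Nr1d2 rose by 0.73 ± 0.17 on the log2 scale (adjusted p = 0.0148). For Nr1d1 (REV-ERBα) the log2 fold change was -0.21 ± 0.36 (adjusted p = 0.751). Its β values were 458.9 and 102.3 CPM in ZT16 CTR and 83.4 and 33.2 in ZT16 DOX libraries, against 122.8 and 154.0 in ZT4 CTR and 165.3 and 19.5 in ZT4 DOX libraries. Only 1 library of ZT16 stood far above the rest, and the groups overlapped. The DEC repressors Bhlhe40 and Bhlhe41 had 0.44 and 0.28, with adjusted p of 0.32 and 0.156.

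Of the factors that act on D-boxes, Tef had 81.9 and 86.8 CPM in ZT16 CTR and 69.3 and 77.4 in ZT16 DOX α libraries, against 24.8 and 49.1 in ZT4 CTR and 29.6 and 34.6 in ZT4 DOX α libraries. In β cells it had 144.7 and 92.7 in ZT16 CTR and 62.7 and 64.2 in ZT16 DOX libraries, against 40.2 and 82.0 in ZT4 CTR and 47.6 and 34.7 in ZT4 DOX libraries. It was higher at ZT16 in all 8 pairs, and its groups overlapped only in β cells. Tef rose by 1.0 ± 0.17 on the log2 scale (adjusted p = 0.00303). Dbp and Hlf had 0.25 and 0.74 (adjusted p of 0.555 and 0.107). Nfil3, which opposes these factors on D-boxes, had -0.71 with an adjusted p of 0.0509. None of the 6 clock kinase, ligase and protease genes, among them Csnk1d, Csnk1e, Btrc and Usp2, passed the test, and their log2 fold changes ran between -0.23 and 0.54.

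Both cold-inducible RNA-binding proteins were lower at ZT16. Cirbp and Rbm3 are known to rise when a cell cools and to follow the daily course of body temperature. Rbm3 had 11.0 and 7.94 CPM in ZT16 CTR and 10.9 and 15.1 in ZT16 DOX α libraries, against 25.1 and 43.2 in ZT4 CTR and 54.8 and 37.0 in ZT4 DOX α libraries. Its β values were 19.0 and 13 in ZT16 CTR and 17.3 and 18.0 in ZT16 DOX libraries, against 25.4 and 55.4 in ZT4 CTR and 49.5 and 42.8 in ZT4 DOX libraries. No ZT16 library of either cell type reached a ZT4 library, and the same held for Cirbp. Rbm3 fell by 1.59 ± 0.18 (adjusted p = 4.44e-04) and Cirbp by 1.34 ± 0.15 (adjusted p = 4.32e-04) on the log2 scale.

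**Figure D1:**
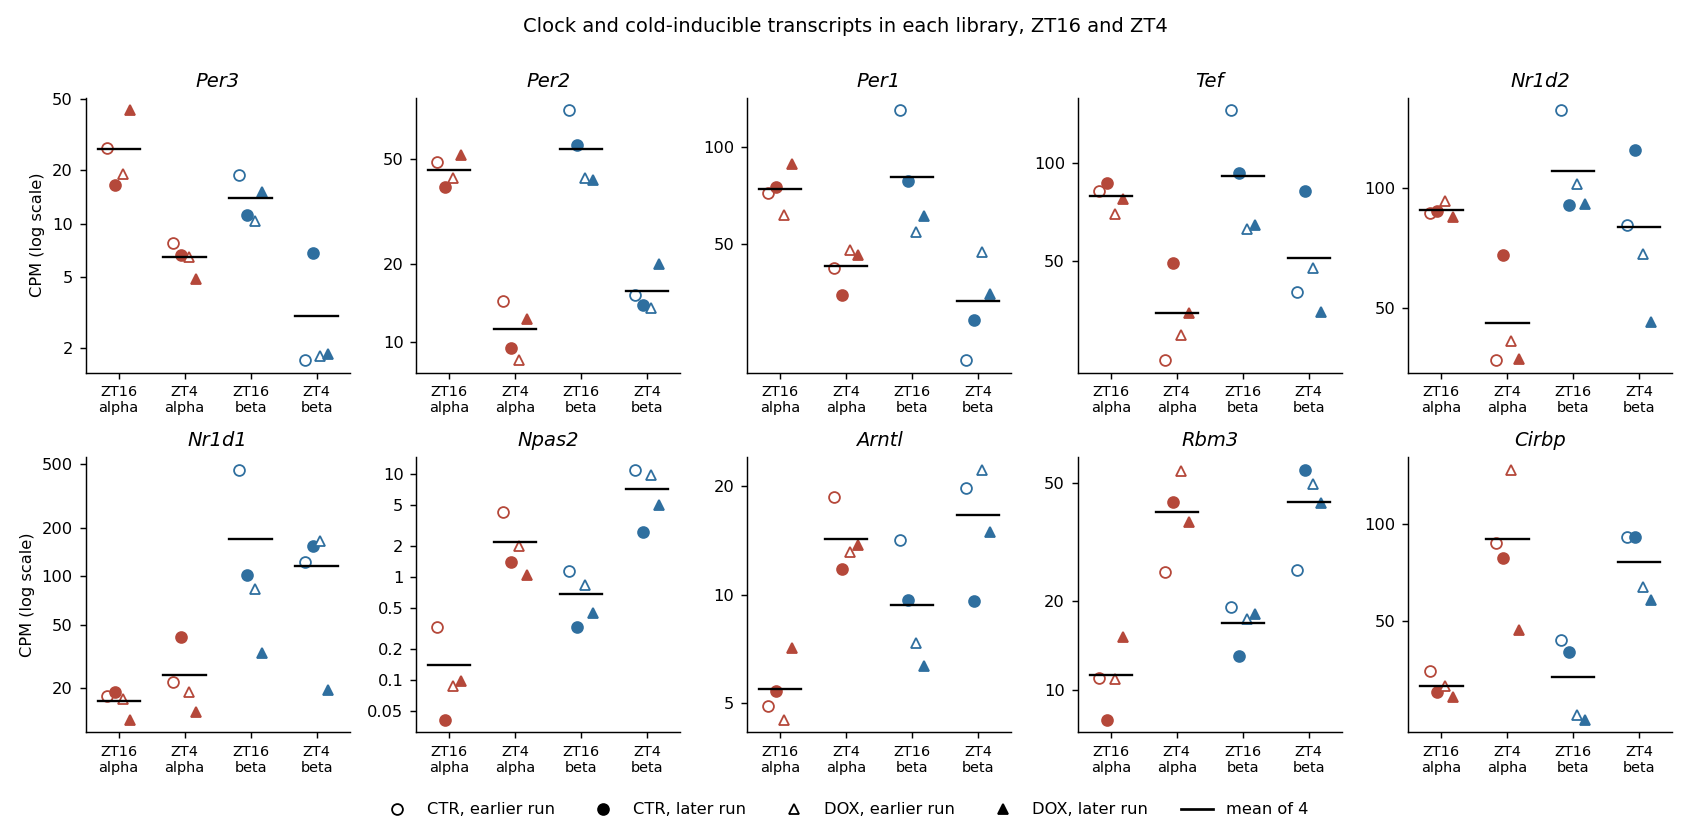
CPM (log axis) of 10 clock and cold-inducible genes in each of the 16 libraries, α cells on the left and β cells on the right of each panel, ZT16 before ZT4; circles are CTR and triangles DOX, open symbols the earlier and filled symbols the later run, and bars the mean of 4. Per2, Per3 and Per1 at ZT16 lie above all ZT4 libraries and Rbm3 and Cirbp below them, while 1 β library of Nr1d1 reaches 458.9 CPM at ZT16.

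The promoters of 4 of these genes are shown because they hold, near an annotated start, the letters through which the loop is known to act. Windows run from 250 bases before to 50 bases after the start, 300 in all, and are credited to RefSeq (GRCm38.p6). Letters searched on both strands were the E-box CACGTG, its variant CACGTT, the D-box TTATGTAA or TTACGTAA, and the core of the ROR element TAGGTCA or TGGGTCA, and matches are in capitals. Per1 (chr11:69098699-69098998, plus strand) and Tef (chr15:81802423-81802722, plus strand) each hold 1 E-box, and Per3 (chr4:151044616-151044915, minus strand) holds 2 D-box matches. Arntl (chr7:113207261-113207560, plus strand) holds 1 ROR core. Per1, Tef and Arntl each have 2 windows, of which 1 with a match is shown. The windows of Per1 and Arntl that are not shown hold no match, and that of Tef holds 1 E-box.
Per1: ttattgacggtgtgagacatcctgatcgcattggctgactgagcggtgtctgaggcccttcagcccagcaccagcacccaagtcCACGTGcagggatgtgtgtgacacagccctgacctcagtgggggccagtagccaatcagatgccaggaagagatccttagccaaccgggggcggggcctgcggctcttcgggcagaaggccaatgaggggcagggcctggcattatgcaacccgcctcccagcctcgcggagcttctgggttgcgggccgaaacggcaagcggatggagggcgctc
Tef: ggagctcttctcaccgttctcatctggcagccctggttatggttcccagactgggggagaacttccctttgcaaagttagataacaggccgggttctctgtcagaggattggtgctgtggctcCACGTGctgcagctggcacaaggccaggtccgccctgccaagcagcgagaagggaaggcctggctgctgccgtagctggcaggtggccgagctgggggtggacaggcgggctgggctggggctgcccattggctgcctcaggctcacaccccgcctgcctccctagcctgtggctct
Per3: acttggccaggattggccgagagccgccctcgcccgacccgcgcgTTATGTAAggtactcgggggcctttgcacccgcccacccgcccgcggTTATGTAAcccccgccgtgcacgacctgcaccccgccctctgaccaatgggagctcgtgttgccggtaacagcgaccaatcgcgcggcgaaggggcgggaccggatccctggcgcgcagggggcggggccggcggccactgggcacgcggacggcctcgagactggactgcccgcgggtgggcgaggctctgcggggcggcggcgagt
Arntl: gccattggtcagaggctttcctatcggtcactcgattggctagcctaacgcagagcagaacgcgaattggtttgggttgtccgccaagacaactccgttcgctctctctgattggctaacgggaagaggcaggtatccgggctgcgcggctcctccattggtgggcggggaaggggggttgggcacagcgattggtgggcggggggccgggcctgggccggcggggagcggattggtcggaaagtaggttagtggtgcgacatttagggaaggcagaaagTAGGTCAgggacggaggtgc
Windows were at hand for 20 of the 26 clock genes, with Per2 named only. Since windows of 1 gene can overlap, genes were counted. The E-box stood in a window of 5 of these 20 genes (25%), against 2187 of all 27025 genes with a window (8.09%). The D-box stood in 1 of 20 (5%) against 1.23% of all genes, the ROR core in 2 of 20 (10%) against 7.35%, and the E-box variant in 4 of 20 (20%) against 5.44%. No searched letters were found in the window of Npas2. These matches describe the sequence and say nothing of which factor was bound.

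ZT16 and ZT4 are not the extremes of every clock gene. Over the 6 sampling times, Per2 averaged 36.9, 13.4, 18.2, 33.3, 50.1 and 39.2 CPM at ZT0, 4, 8, 12, 16 and 20 over the 8 libraries of each time. All 8 libraries of ZT0 are from the later run, whereas each other time has 4 from each run, so ZT0 cannot be set beside the other means free of run. In the later run alone, with 4 libraries at each time after ZT0, Per2 averaged 36.9, 14.0, 21.1, 35.2, 47.4 and 41.2 CPM. Its lowest mean was at ZT4 and its highest at ZT16, both pooled and in the later run. Nr1d2 averaged 36.8, 62.8, 127.4, 180.9, 98.8 and 58.7 CPM over the same times, and Tef 40.1, 42.8, 82.0, 131.1, 85.0 and 60.8 CPM, both highest at ZT12. Per3 also peaked at ZT12 (28.7 CPM), and its lowest mean was at ZT4 (4.76 CPM). Arntl averaged 24.1, 15.5, 8.59, 3.29, 7.44 and 15.1 CPM, lowest at ZT12, so ZT16 lay on its way up. Npas2 averaged 6.60, 4.64, 1.89, 0.429, 0.413 and 1.21 CPM, lowest at ZT12 and ZT16. In the later run alone the lowest means of Arntl (3.60 CPM) and the highest of Nr1d2 (170.8 CPM), Tef (119.9 CPM) and Per3 (28.7 CPM) were also at ZT12, and Npas2 was lowest at ZT16 (0.228 CPM). Rbm3 averaged 30.3, 41.6, 64.3, 49.3, 14.0 and 9.59 CPM, highest at ZT8. Dbp, which did not pass the test, had 31.7 CPM at ZT16 and 24.8 CPM at ZT4 around a peak of 89.4 CPM at ZT12. Nr1d1 spanned 12.8 to 458.9 CPM at ZT16 and 14.2 to 165.3 CPM at ZT4, and its order over time was not clear of that spread.

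**Figure D2:**
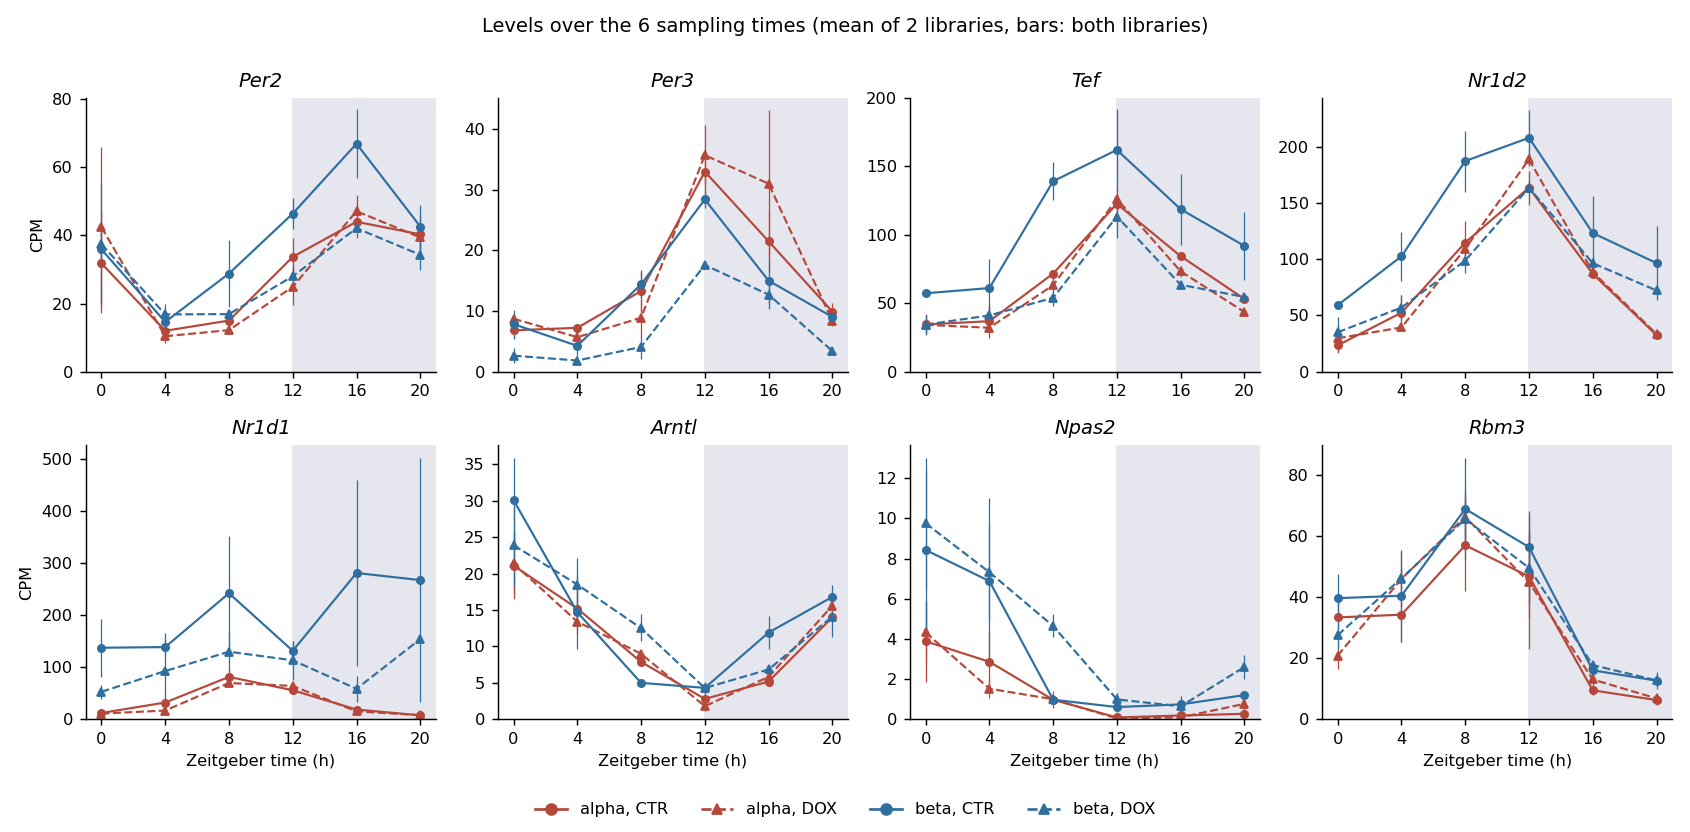
Mean CPM of 8 genes at the 6 sampling times in hours after lights on, for α (red) and β (blue) cells of CTR (solid, circles) and DOX (dashed, triangles) mice; each point is the mean of 2 libraries, bars reach both, and the grey band is the dark phase; both ZT0 libraries of a group are from the later run. Per2 is highest at ZT16 and lowest at ZT4, whereas Nr1d2 and Tef peak at ZT12.

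Whether this comparison differs from another pair of times 12 h apart was tested against ZT20 over ZT8, over 16761 genes with all 32 libraries. The change of ZT16 over ZT4 differed from that of ZT20 over ZT8 in 37 genes (0.221%), 20 in the positive and 17 in the negative direction. Clock genes led them, with Per3 (difference 2.55 ± 0.36, adjusted p = 7.79e-04), Nr1d2 (1.93 ± 0.26, adjusted p = 5.27e-04), Tef (1.38 ± 0.21, adjusted p = 0.00158), Arntl (-1.89 ± 0.29, adjusted p = 0.00158) and Npas2 (-2.96 ± 0.51, adjusted p = 0.00924). Cry1 (-1.26 ± 0.25, adjusted p = 0.0243) and Rbm3 (1.17 ± 0.25, adjusted p = 0.0381) also differed. For Per2, Cirbp and Per1 the differences were 0.71 ± 0.22, 0.74 ± 0.19 and 0.29 ± 0.24 (adjusted p of 0.175, 0.0901 and 0.618). Fkbp5, a co-chaperone of the glucocorticoid receptor that the hormone induces, differed by 0.81 ± 0.14 (adjusted p = 0.00999). Stab2, a scavenger receptor of sinusoidal endothelium, differed by -6.02 ± 1.07 with the same adjusted p. It spanned 0.0928 to 9.79 CPM at ZT16 and 0.215 to 40.3 CPM at ZT4. With α and β libraries as a block in limma-voom it was not called (adjusted p = 0.127). Its 4 high ZT4 values (26.7 to 40.3 CPM) were all in the later run, and the earlier run had 0.215 to 5.62 CPM at ZT4. Fam84a differed by -1.44 ± 0.26.

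Outside the clock lists, the largest rises with 1 direction in all 8 pairs and at least 10 CPM at the higher time were those of Pde10a, Col27a1, Asic2, Mdm1, Fosl2 and Nktr. Pde10a, a phosphodiesterase that breaks down cyclic nucleotides, had 27.4 and 33.3 CPM in ZT16 CTR and 23.7 and 43.0 in ZT16 DOX α libraries, against 10.3 and 5.08 in ZT4 CTR and 7.52 and 6.87 in ZT4 DOX α libraries. In β cells it had 98.3 and 100.6 in ZT16 CTR and 74.1 and 94.9 in ZT16 DOX libraries, against 15.5 and 12.9 in ZT4 CTR and 54.6 and 33.0 in ZT4 DOX libraries. The times did not overlap within either cell type, and in β cells at ZT4 both DOX libraries were above both CTR libraries. Pde10a rose by 2.01 ± 0.25 on the log2 scale (adjusted p = 6.31e-04). Mdm1, a microtubule-binding centriole protein, rose by 1.12 ± 0.12 (adjusted p = 3.20e-04), with 220.8 ± 25.4 CPM at ZT16 and 80.7 ± 4.37 CPM at ZT4 in β cells (SD, n = 4 libraries). Col27a1, a fibrillar collagen, rose by 1.40 ± 0.36, Asic2, an acid-sensing ion channel, by 1.28 ± 0.21, Fosl2, an AP-1 subunit, by 1.06 ± 0.24, and Nktr, a cyclophilin, by 0.98 ± 0.23. Col27a1 lost its call in 3 of 16 fits that left out 1 library each.

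The largest falls by the same rule were those of Olfm3, Slc41a3, Ppp1r3c, Rbm3, Zdhhc22, Dmrtc1a, Cirbp, Serpina7, Lpl and Glb1l2. Lpl codes for lipoprotein lipase, which releases fatty acids from circulating triglyceride. It had 169.8 and 182.0 CPM in ZT16 CTR and 155.6 and 169.9 in ZT16 DOX α libraries, against 554.6 and 511.4 in ZT4 CTR and 438.9 and 472.9 in ZT4 DOX α libraries. The α groups stood far apart, with little spread within either time. In β cells Lpl was low, 13.5 to 31.2 CPM at ZT16 and 21 to 84.8 CPM at ZT4, and the times overlapped. Its log2 fold change over all libraries was -1.25 ± 0.14 (adjusted p = 3.89e-04).

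Glb1l2, a galactosidase-like gene, fell by 1.24 ± 0.10 on the log2 scale (adjusted p = 2.20e-05), and its times overlapped in neither cell type. Ppp1r3c, which targets a phosphatase to glycogen, fell by 1.68 ± 0.30 (adjusted p = 0.00462), with 0.607 to 5.74 CPM at ZT16 and 3.18 to 23.2 CPM at ZT4. Slc41a3, a magnesium transporter, fell by 1.74 ± 0.23 (adjusted p = 0.00104). Serpina7, the thyroxine-binding globulin, fell by 1.28 ± 0.18 (adjusted p = 0.00153). In β cells its level also followed treatment, with 39.9 and 94.7 CPM in ZT16 DOX and 3.04 and 6.21 in ZT16 CTR libraries, and 63.9 and 217.6 CPM in ZT4 DOX and 13.7 and 18.3 in ZT4 CTR libraries. Olfm3 fell by 1.87 ± 0.37 (adjusted p = 0.00682), mainly a matter of α cells, where it had 3.38 to 29.4 CPM at ZT16 and 26.7 to 83.3 CPM at ZT4. Its β values were 0 to 0.649 CPM at ZT16 and 0.208 to 1.56 CPM at ZT4. Zdhhc22, a protein acyltransferase, fell by 1.51 ± 0.32, and Dmrtc1a by 1.41 ± 0.19.

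Of 18 cytosolic and mitochondrial heat shock chaperone genes, 11 rose, 7 did not pass, none fell, 17 had a positive log2 fold change and the median was 0.57, against 5.29% of all genes called higher. Hsp90aa1, the inducible cytosolic HSP90, had 337.0 and 261.2 CPM in ZT16 CTR and 390.7 and 266.1 in ZT16 DOX α libraries, against 177.7 and 160.5 in ZT4 CTR and 107.1 and 279.6 in ZT4 DOX α libraries. In β cells it had 449.2 and 433.2 in ZT16 CTR and 549.4 and 362.5 in ZT16 DOX libraries, against 205.8 and 169.1 in ZT4 CTR and 241.2 and 247.0 in ZT4 DOX libraries. The β libraries of the times did not overlap, and in α cells 1 ZT4 DOX library lay among the ZT16 values. Hsp90aa1 rose by 0.92 ± 0.17 on the log2 scale (adjusted p = 0.00435).

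Hsph1, a nucleotide exchange factor of HSP70, rose by 1.07 ± 0.30 on the log2 scale, Hspa8, the constitutive HSP70, by 0.85, and Stip1, which joins HSP70 to HSP90, by 0.80 ± 0.14. The mitochondrial chaperonin pair Hspd1 and Hspe1 rose by 0.44 ± 0.09 and 0.50 ± 0.10. The near-identical inducible genes Hspa1a and Hspa1b, whose reads cannot be told apart with certainty, had 0.54 and 0.65 and did not pass the test. In α cells alone none of the 18 passed. Of the 18, 13 passed in the earlier run alone (median 0.69) and 0 in the later run alone (median 0.40). With mean log2 marker levels as covariates 9 to 11 passed, and leaving out 1 library at a time 9 to 12 did.

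The windows of Hsph1 and Hspe1 are shown because the heat shock element is the known site of heat shock factors. The letters searched, on both strands, were TTC, GAA and TTC in a row with 2 bases of any kind between neighbours, or the same with TTC and GAA exchanged, and they are in capitals. Hsph1 lies at chr5:149636287-149636586 (minus strand) and Hspe1 at chr1:55087898-55088197 (plus strand), and a window of Hspd1 covers almost the same stretch as that of Hspe1 on the other strand. The other window of Hsph1 overlaps the one shown and holds the same match.
Hsph1: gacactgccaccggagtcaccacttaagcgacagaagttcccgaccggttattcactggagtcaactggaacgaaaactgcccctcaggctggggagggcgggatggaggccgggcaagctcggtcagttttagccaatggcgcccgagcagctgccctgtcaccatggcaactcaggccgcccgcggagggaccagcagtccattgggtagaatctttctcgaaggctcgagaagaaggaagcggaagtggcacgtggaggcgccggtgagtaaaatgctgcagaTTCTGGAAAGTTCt
Hspe1: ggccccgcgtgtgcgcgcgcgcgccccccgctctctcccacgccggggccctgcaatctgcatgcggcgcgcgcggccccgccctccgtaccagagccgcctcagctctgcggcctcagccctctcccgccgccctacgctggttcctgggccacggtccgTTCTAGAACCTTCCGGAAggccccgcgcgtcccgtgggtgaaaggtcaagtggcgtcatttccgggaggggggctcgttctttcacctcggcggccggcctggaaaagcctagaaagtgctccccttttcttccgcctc
Windows were at hand for 14 of the 18 genes. The element stood in a window of 4 of these 14 genes (28.6%), against 179 of all 27025 genes with a window (0.662%). Hspd1 and Hspe1 share 1 stretch, so there are 3 distinct stretches, in Hsph1, Chordc1 and between that pair. A match is a description of these letters only.

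Of 21 genes of the unfolded protein response, 7 rose, none fell, and the median was 0.25, with 5.29% of all genes called higher. Creld2 rose by 0.61, Herpud1 by 0.54 ± 0.13, Pdia4 by 0.53 ± 0.09, Hyou1 by 0.53, Ddit3 by 0.44, Dnajb11 by 0.42 and Hspa5 by 0.39. These serve protein folding and clearance in the reticulum, except Ddit3, a transcription factor of prolonged stress. The count was 5 to 9 leaving out single libraries and 4 to 8 with mean log2 marker levels as covariates. In β cells Herpud1 had 366.7 and 419.4 CPM in ZT16 DOX libraries and 120.8 and 315.0 in ZT4 DOX libraries, so the ZT4 DOX libraries of the runs lay far apart. Of 14 genes under ATF4 or of amino acid synthesis, Atf4 itself rose by 0.39 and Pycr1, of proline synthesis, fell by 0.54 ± 0.08 (edgeR adjusted p = 0.00215). Among all genes 5.86% were called lower.

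Immediate early genes, are those which cells switch on within minutes of a stimulus or of handling. Of 22, 7 rose (Nr4a1, Fosl2, Dusp1, Jun, Egr1, Klf4 and Klf6), none fell, and the median was 0.50, with 5.29% of all genes called higher. Fos had 1341 and 72.3 CPM in ZT16 CTR and 1129 and 134.2 in ZT16 DOX α libraries, against 753.5 and 41.2 in ZT4 CTR and 752.6 and 90.2 in ZT4 DOX α libraries. The difference between runs was thus far larger than that between times, and Fos did not pass the test (log2 fold change 0.55, adjusted p = 0.208). Dusp1, a phosphatase of MAP kinases, rose by 0.79 ± 0.15 (adjusted p = 0.00646), and Nr4a1, an orphan nuclear receptor, by 1.66 ± 0.50 (adjusted p = 0.0456). The count depended on the libraries, with 3 to 9 when single libraries were left out and 2 without the block for replicate and run. The earlier run alone gave 9 and the later run alone 0.

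Of 21 genes of fasting and fat oxidation, 4 fell, none rose and the median was -0.23, with 5.86% of all genes called lower. Cpt1a, the gate of fatty acid entry into mitochondria, had 20.9 and 30.6 CPM in ZT16 CTR and 28.2 and 39.9 in ZT16 DOX α libraries, against 48.0 and 60.2 in ZT4 CTR and 35.1 and 34.0 in ZT4 DOX α libraries. It was lower at ZT16 in 7 of 8 pairs, the exception being the later DOX pair of α cells, and fell by 0.64 ± 0.14 on the log2 scale (adjusted p = 0.0109). The carnitine carrier Slc25a20 fell by 0.52 ± 0.13, the dehydrogenase Acadl by 0.30 and the triglyceride lipase Pnpla2 by 0.27. Angptl4, a strong fasting gene of the liver, had -1.83 with an adjusted p of 0.157 and medians of 0.0801 CPM at ZT16 and 0.510 CPM at ZT4. The count of 4 ran from 1 to 6 when single libraries were left out.

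Among genes of glucose handling, G6pc2, the islet glucose-6-phosphatase, which frees glucose from its phosphate, had 1996 and 2263 CPM in ZT16 CTR and 2478 and 2049 in ZT16 DOX β libraries, against 3357 and 2949 in ZT4 CTR and 4010 and 4110 in ZT4 DOX β libraries, with no overlap. Slc2a2, the GLUT2 glucose transporter, had 681.4 and 804.7 CPM in ZT16 CTR and 256.0 and 350.3 in ZT16 DOX β libraries, against 1370 and 1462 in ZT4 CTR and 434.8 and 488.5 in ZT4 DOX libraries. Both were lower at ZT16 in every pair, and Slc2a2 was also lower in DOX libraries at each time. G6pc2 fell by 0.82 ± 0.13 (adjusted p = 0.00275) and Slc2a2 by 0.75 ± 0.13 (adjusted p = 0.00403) over all libraries. Pklr, pyruvate kinase of liver and islet and a target of ChREBP, fell by 0.76 ± 0.12 (adjusted p = 0.00288), and its 8.44 to 17.9 CPM at ZT16 lay below all of the 19.2 to 31.9 CPM at ZT4. Of 10 ChREBP targets it alone passed the test, with 5.86% of all genes called lower, and Txnip had 0.03.

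The hormones themselves did not pass. In β cells Ins1 and Ins2, near-identical copies, differed by -0.32 and -0.37 on the log2 scale without passing (adjusted p = 0.516 for Ins1 and 0.426 for Ins2). Over all libraries, which include α libraries with only traces of insulin, they had -0.58 and -0.70 (adjusted p of 0.0511 and 0.0663). Gcg had 0.06, Sst -0.14 and Ppy -0.30 over all libraries. Ins2 took 18.4 ± 1.53% of β counts at ZT16 and 22.4 ± 3.63% at ZT4 (SD, n = 4). Of 16 β-cell identity genes 3 fell, Slc2a2, G6pc2 and Prss53, and of 10 α-cell identity genes Sytl5, a partner of RAB27 in secretion, rose by 0.49. Of 12 granin and prohormone processing genes none passed, and of 19 exocytosis genes 3 did (Napa 0.27, Syt7 0.23, Vamp2 -0.24). Among all genes 5.29% were called higher and 5.86% lower, so the counts of the α-cell identity and exocytosis lists are near that background.

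Smaller counts came from the other lists, to be read against 5.29% of all genes called higher and 5.86% called lower. Of 11 glucocorticoid-responsive genes, Errfi1 rose by 0.68 ± 0.13, Fkbp5 by 0.50 ± 0.09 and Tsc22d3 by 0.46, while the metallothionein Mt2 fell by 0.95 ± 0.28. Errfi1 curbs the EGF receptor, and Tsc22d3 is the glucocorticoid-induced leucine zipper. Of 9 measured FoxO targets that insulin represses, Trib1 (0.62) and Cdkn1b (0.26) rose and none fell, and Irs2 had 0.67 with an adjusted p of 0.0786. Of 19 ribosome biogenesis genes, Nolc1 (0.55), Utp20 (0.50) and Polr1a (0.45) rose. Of 24 respiratory chain genes, 3 fell, among them Cox6c (-0.35) and Atp5c1 (-0.26), the median was -0.17, and the count ran from 1 to 10 when single libraries were left out. Of 12 fatty acid synthesis genes 1 rose and 1 fell, and the median was 0.04. Elovl6, a fatty acid elongase, rose by 0.78 ± 0.09 (adjusted p = 6.11e-04) and was higher at ZT16 in all 8 pairs. Me1, the malic enzyme that makes NADPH, fell by 0.37 ± 0.11 (adjusted p = 0.0373).

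**Figure D3:**
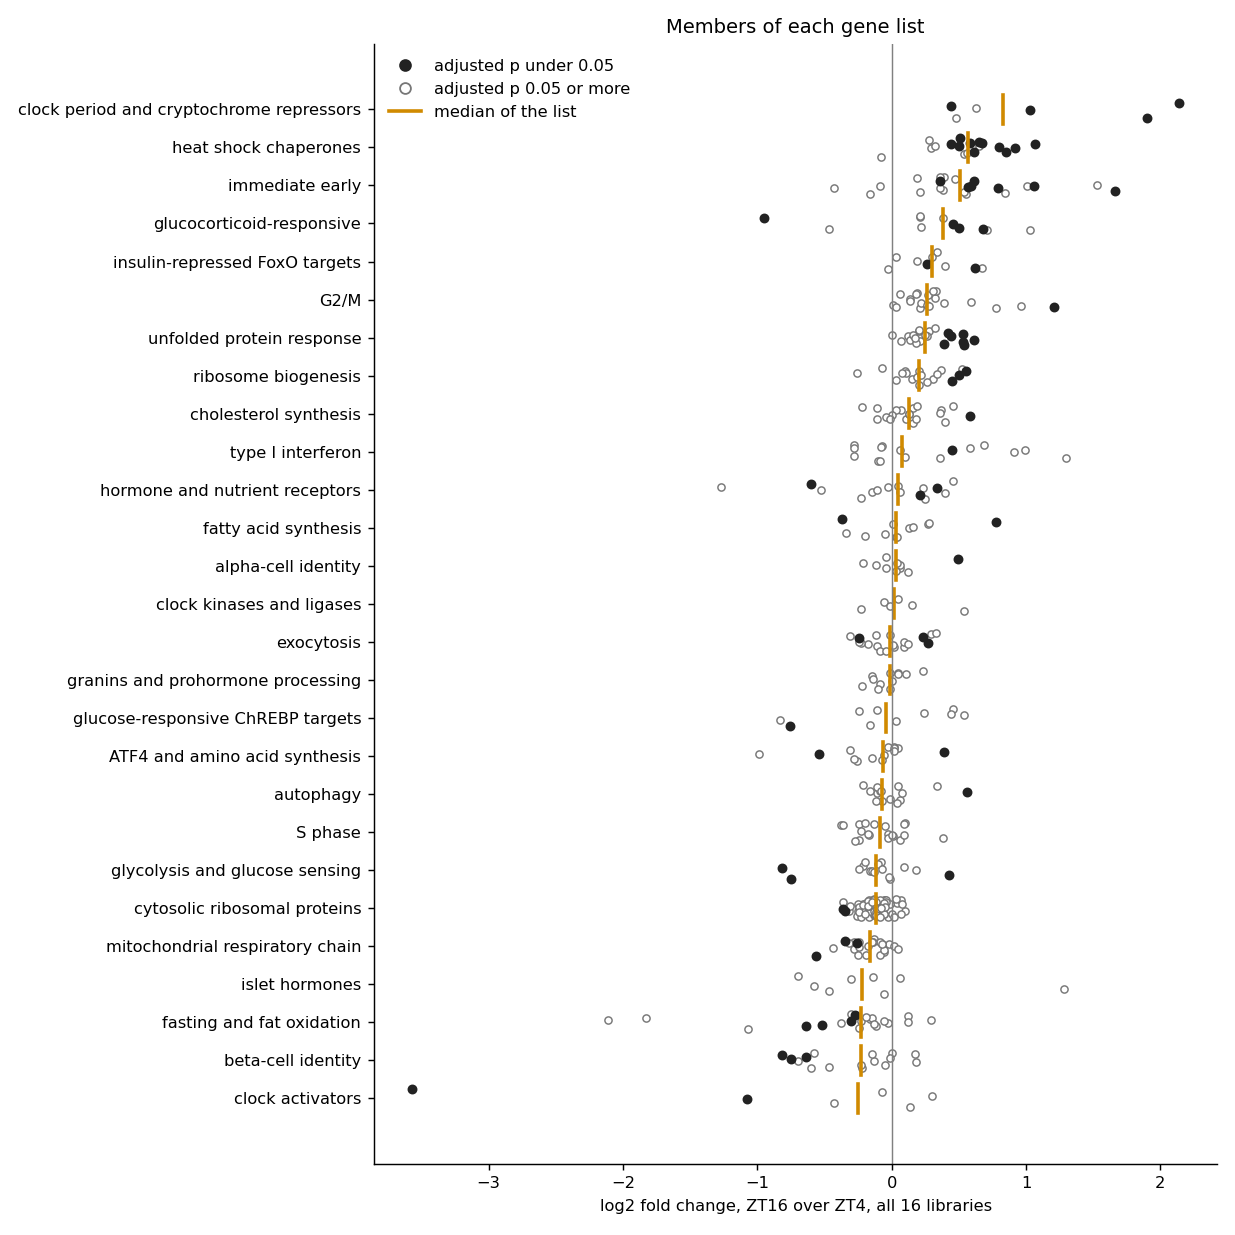
Log2 fold change of ZT16 over ZT4 over all 16 libraries for each member of the gene lists with 6 or more genes tested, marker lists of other cells left out; filled points passed the test (adjusted p under 0.05), open points did not, and orange bars are list medians. Period and cryptochrome genes, heat shock chaperones and immediate early genes have the highest medians, while the medians of clock activators, β-cell identity and fasting genes lie furthest to the left among the lists drawn.

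Markers of other cells were set beside these results. Of stellate and fibroblast markers none of 9 passed, yet their median log2 fold change was -1.40, and their summed level in α libraries was 34.7 to 75.9 CPM at ZT16 and 66.0 to 108.8 CPM at ZT4. In β libraries it was 7.97 to 64.7 CPM at ZT16 and 1.12 to 397.2 CPM at ZT4. Of 15 macrophage and dendritic cell markers none passed, with a median of -0.47, and their sums in β libraries were 216.5 to 1771 CPM at ZT16 and 157.1 to 1357 CPM at ZT4. Acinar markers had a median of 2.09 in β cells and -1.15 in α cells, none past the threshold. Acinar sums were 16.2 to 1013 CPM at ZT16 and 30.6 to 1441 CPM at ZT4 in α libraries, and 16.1 to 676.6 CPM at ZT16 and 13.4 to 125.8 CPM at ZT4 in β libraries. Of 8 endothelial markers none passed, with a median of -0.41, and of 7 lymphocyte markers none, with a median of -0.20. Single markers of other lists passed, and those named here were chosen after their values were seen. Etv1, 1 of 7 markers tested for δ, PP and ε cells, rose by 0.34 (adjusted p = 0.0127). The 8 markers of that list summed to 27500 to 48850 CPM at ZT16 and 30780 to 54660 CPM at ZT4 in α libraries. No other marker list had sums this high. In β libraries their sums were 619.1 to 1249 CPM at ZT16 and 575.2 to 1154 CPM at ZT4. In α cells the β-globin gene Hbb-bs was called at 6.06 (adjusted p = 0.0447), with 0.655 and 2.76 CPM in ZT16 CTR and 0 and 0.195 in ZT16 DOX libraries, against 0 and 0.0438 in ZT4 CTR and 0 in both ZT4 DOX libraries. At such counts the fitted fold is no measure of size. The part of these cells in the results was not tested beyond the covariates that follow. Each covariate was the mean log2 level of the markers of 1 list, not their sum, and was added after the data were seen. With stellate, macrophage and acinar markers, 1431, 1691 and 1800 genes were called over all libraries.

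In α cells alone 52 of 15866 genes were called, 10 higher (0.0630%) and 42 lower (0.265%) at ZT16. The rises were led by Pde10a (2.11 ± 0.26), Per2 (2.03 ± 0.19), Per3 (2.01 ± 0.31), Tef (1.22 ± 0.15), P4ha2 (1.19 ± 0.18) and Dusp1 (0.87). P4ha2 makes the hydroxyproline of collagens. Among genes of at least 10 CPM at the higher time, the limit that also holds for the rises, the falls were led by Gstm7 (-1.97 ± 0.17), Rbm3 (-1.84 ± 0.22), Dmrtc1a (-1.66 ± 0.22), Lpl (-1.55 ± 0.11), Cirbp (-1.45 ± 0.24) and Arntl (-1.37 ± 0.21). Npas2, below that limit, fell by 3.93. Gstm7, a glutathione transferase of a family of close copies, whose reads are therefore uncertain, had 3.44 and 2.51 CPM in ZT16 CTR and 2.95 and 2.51 in ZT16 DOX libraries, against 11.7 and 11.2 in ZT4 CTR and 10.2 and 11.2 in ZT4 DOX libraries. All ZT16 values were below all ZT4 values, and neither treatment nor run set them apart. Lpl passed in all 23 other settings, mean log2 marker levels as covariates among them, and Gstm7 in 22 of 23. The count of 52 is not steady, being 2 to 83 when single libraries were left out, 1305 in the earlier and 12 in the later run. With the mean log2 level of stellate, macrophage or acinar markers as a covariate it was 4, 3 and 3.

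In β cells alone 471 of 16239 genes were called, 251 higher (1.55%) and 220 lower (1.35%). Besides Per3 (2.34 ± 0.40), Pde10a (1.89 ± 0.36) and Per2 (1.76 ± 0.21), the rises were led by Aldh1a3 (1.84 ± 0.30), Asic2 (1.80 ± 0.20) and Nr4a1 (1.62). Aldh1a3, which makes retinoic acid and is known as a marker of β cells that lose their identity, had 16.9 and 53.3 CPM in ZT16 CTR and 351.1 and 433.8 in ZT16 DOX libraries, against 4.22 and 10.9 in ZT4 CTR and 58.6 and 314.0 in ZT4 DOX libraries. It was higher at ZT16 in each pair, as the rule for these ranks required, while the treatments stood further apart than the times. With the same limit of 10 CPM, the falls were led by the magnesium transporter Slc41a3 (-2.24 ± 0.26), Spon2 (-1.99 ± 0.23), Zdhhc22 (-1.76 ± 0.38), the histone deacetylase Hdac9 (-1.61 ± 0.29), the cadherin Pcdh15 (-1.43 ± 0.19) and Serpina7 (-1.39 ± 0.24). Npas2, below the limit, fell by 3.33. Spon2, a secreted matrix protein, had 4.93 and 8.56 CPM in ZT16 CTR and 18.4 and 26.2 in ZT16 DOX libraries, against 39.0 and 38.7 in ZT4 CTR and 51.4 and 70.2 in ZT4 DOX libraries. The count of 471 was 7 to 466 when single libraries were left out, 16 in the earlier and 0 in the later run, where 1787 genes had an unadjusted p under 0.05 in edgeR.

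**Figure D4:**
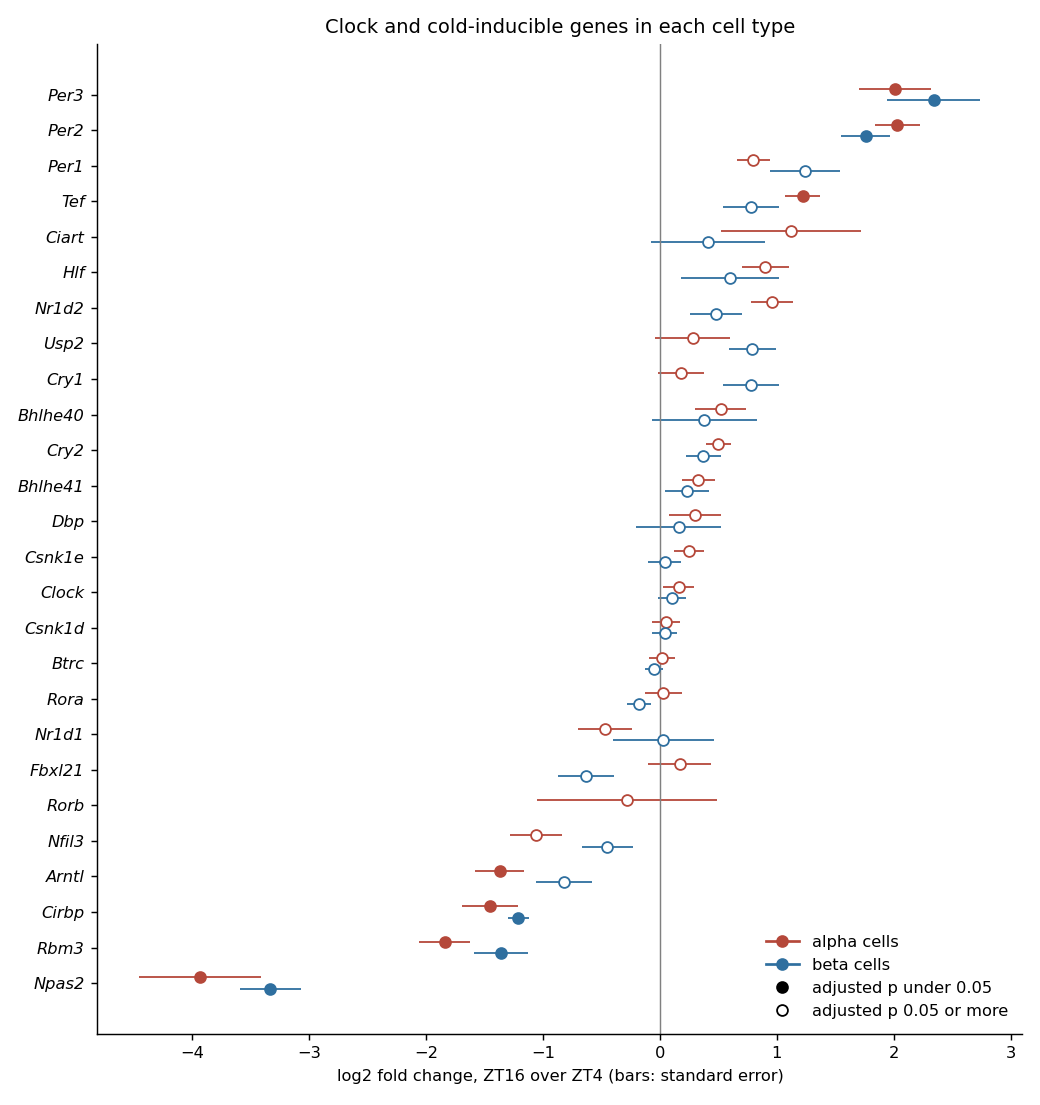
Log2 fold change of ZT16 over ZT4 with its standard error for clock and cold-inducible genes, α cells in red and β cells in blue; filled points passed the test in that cell type (adjusted p under 0.05). Per3 and Per2 lie furthest to the higher side and Npas2 furthest to the lower side, and all of them passed in both cell types, as did Rbm3 and Cirbp.

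The cell types shared 11 calls, all in 1 direction, which is 21.2% of the α calls and 2.34% of the β calls. Of all genes tested, 2.90% were called in β cells and 0.328% in α cells. Per2, Per3 and Pde10a rose in both, and Npas2, Cirbp, Rbm3, Lpl, Glb1l2, Serpina7, Auh and Mturn fell in both. Auh, a mitochondrial hydratase of leucine breakdown, had -0.71 in α and -0.79 in β cells, and Mturn had -0.81 in α and -0.93 in β cells. Of 51 α calls tested in β cells 47 had the same sign there (92.2%), and of 469 β calls tested in α cells 443 did (94.5%), against 10790 of all 15117 genes tested in both (71.4%). The cell types may share animals, so these shares are a description only.

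The difference between β and α cells was tested in 1 model over all 16 libraries. No gene of 16981 passed (0%) with edgeR, whose smallest adjusted p was 0.246; 838 genes had an unadjusted p under 0.05, and DESeq2 called 57. So none of the contrasts between cell types above is shown to be a difference by edgeR. With the α and β libraries of 1 time, treatment and run as a random block, limma-voom called 6 genes, Mvd (adjusted p = 0.0338), Ror1 (0.0240), Spon2 (0.0240) and Kl (0.0243) among them, and 0 without that block. Among the genes with the lowest p were Mvd (1.18 ± 0.20), Ror1 (-1.19 ± 0.20), Spon2 (-1.54 ± 0.26), Kl (-0.98 ± 0.18), Ctnnal1 (0.82 ± 0.16), Fam20a (-0.86 ± 0.17) and Papss2 (0.73 ± 0.15). Ror1 is a receptor of Wnt ligands, Kl codes for the FGF23 co-receptor klotho, and Papss2 makes the sulfate donor of the cell. For the clock genes the differences were -0.27 ± 0.31 for Per2, 0.32 ± 0.56 for Per3, 0.60 ± 0.49 for Npas2 and 0.54 ± 0.35 for Arntl, none past the threshold.

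Mvd makes isopentenyl diphosphate on the way to cholesterol. Its β levels were 8.78 and 11.2 CPM in ZT16 CTR and 7.89 and 13.1 in ZT16 DOX libraries, against 5.30 and 7.80 in ZT4 CTR and 4.43 and 7.22 in ZT4 DOX libraries. Its α levels were 3.44 and 3.09 CPM in ZT16 CTR and 4.16 and 3.71 in ZT16 DOX libraries, against 4.42 and 4.81 in ZT4 CTR and 5.53 and 4.88 in ZT4 DOX libraries. All ZT16 values lay above all ZT4 values in β cells, by a narrow margin, and below them in α cells.

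Of 20 cholesterol synthesis and uptake genes, all 20 had a positive log2 fold change in β cells with a median of 0.43, and 4 rose there, among them Lss (0.89), Mvd (0.73) and Cyp51 (0.65), with 1.55% of all genes called higher in β cells. In α cells 6 of 20 were positive with a median of -0.24, and none passed. All 20 stayed positive in β cells in each run, in DOX libraries alone and under both other scalings, and 18 of 20 did in CTR libraries alone. Without any 1 library all 20 were positive with medians of 0.36 to 0.55, while only 0 to 2 of them passed. Over all genes the median was -0.01 in each cell type, and the lists' directions were not tested against them.

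Of 76 cytosolic ribosomal protein genes, none was positive in β cells, the median was -0.34, and 3 fell (Rpl7a, Rpl15 and Rps29), with 1.35% of all genes called lower. That count was 0 without any of 6 of the 8 β libraries, 1 without the ZT16 DOX β library of the later run and 8 without that of the earlier run, while the median stayed between -0.43 and -0.24. In α cells 61 of 76 were positive with a median of 0.09 and none passed. The α side rests on the run: 74 of 76 were positive in the earlier run (median 0.41, 56 rising) and 2 of 76 in the later run (median -0.25). Without the ZT16 DOX α library of the earlier run 12 of 76 were positive (median -0.09), and without the ZT4 CTR α library of that run 19 were (median -0.07). In β cells 1 of 76 was positive in the earlier run, and 0 were in the later one. Many of these genes have near-identical processed copies in the genome, so their counts are uncertain.

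**Figure D5:**
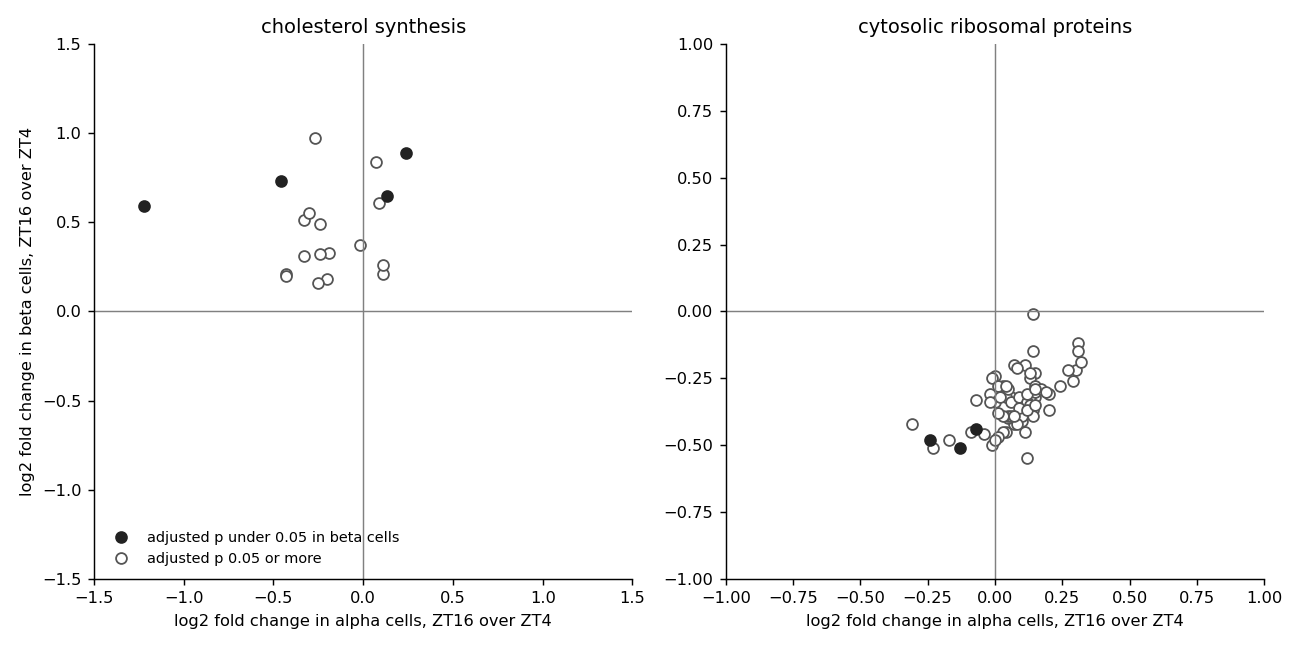
Log2 fold change of ZT16 over ZT4 in β cells (vertical) against α cells (horizontal) for 20 cholesterol genes (left) and 76 cytosolic ribosomal protein genes (right); each point is a gene, filled where it passed the test in β cells (adjusted p under 0.05). All cholesterol genes lie above 0 and all ribosomal protein genes below 0 on the β axis, while α values lie on both sides of 0.

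The difference between DOX and CTR in the change between times was called for 2 of 16436 genes (0.0122%), Gm26619 and Gm10260, both at -2.07. They carry near-identical values and are counted here as 1 result. Gm10260 averaged 18.4 CPM in DOX libraries at ZT16 and 40.1 CPM in DOX libraries at ZT4, and 28.8 CPM in CTR libraries at ZT16 and 14.5 CPM in CTR libraries at ZT4. With edgeR 705 genes had an unadjusted p under 0.05, and DESeq2 called 20. Within the treatments, 1154 genes were called among CTR libraries alone and 5 among DOX libraries alone. No clock gene passed the test of a difference between the treatments. Per2 had a difference of -0.29 ± 0.29 and Per1 of -0.87 ± 0.31 (adjusted p = 0.998 for each).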

How the data were processed

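Estimated counts per gene were taken from the 2 tables the authors deposited, 1 for each sequencing run. The submitters' processing notes name bcl2fastq, STAR and the build GRCm38. The program that counted them is not given in the sources used here. Of the nonzero values, 53.5 to 68.9% per library were whole within 1e-06, and of whole values up to 20, 99.8 to 100% were even, for which no source used here gives a reason. Deposited RPKM tables were not used. No column lacked a sample.

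Counts were rounded, genes of low count were removed (filterByExpr, minimum count 10, minimum total 15), and edgeR 4.0.16 with limma 3.58.1 in R 4.3.3 gave quasi-likelihood F tests with TMM scaling. P-values were adjusted by Benjamini-Hochberg over all genes tested, with a threshold of 0.05. The model had time, the 4 conditions of cell type and treatment, and run. At both times the replicate number is the run, so the run block is also the replicate block. Same-numbered libraries deviated together, with correlations of 0.447, 0.207, 0.340 and 0.262 in the 4 conditions. Since the number is also the run, paired samples and a difference between runs cannot be told apart here. Standard errors are the size of the log2 fold change over the square root of F. CPM values use 1 set of TMM factors over all 48 libraries. Every log2 fold change is ZT16 minus ZT4.

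Members, gene lists and marker lists were chosen with earlier results of these data known. Named genes are all clock and cold-inducible genes; the 10 largest rises and falls with at least 10 CPM at the higher time and 1 direction in 8 of 8 pairs; 6 of each per cell type with 4 of 4 pairs; up to 5 genes of lowest p per list; the 8 of lowest p for each difference between contrasts; and the hormones. Predicted genes were passed over in these ranks, and 2 of them are named because they alone were called. Some genes that these rules name are not reported here. Aldoa and Itgam were left out of the lists because each symbol stands for 2 gene IDs. Library totals limit precision at low counts. The tests were tried on simulated independent libraries without run or condition effects, with changes only in genes of high count. That trial thus does not cover low counts, run effects or shared animals. Alternatives were DESeq2 1.42.0, other scalings and filters, the block left out or set within conditions, and halved counts. Each run and each treatment was also fitted alone, and each library was left out in turn. Other alternatives were chosen after seeing the data. They were 3 covariates, each the mean of log2(CPM + 0.5) over 1 marker list, and limma-voom. The latter was fitted with and without α and β libraries of 1 time, treatment and run as a random block.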

Additional observations from a re-analysis of the deposited data

Results flagged for a closer look

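Groups of 4 libraries were examined for clock and cold-inducible genes, the largest rises and falls over all libraries, library totals and marker sums. In 16 of 204 groups 1 library lay far from the rest, judged by its gap to the nearest library over the range of the group. Dixon's 95% limit for 4 samples was used. Chance gives about 1 in 20 groups, so a good part of these 16 may be due to it.

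The ZT16 CTR β library of the earlier run was far above the others for Nr1d1 (ratio 0.838), with 458.9 CPM against 33.2 to 102.3 CPM, and for Ciart (0.887), with 57.3 CPM against 2.88 to 9.05 CPM. Neither gene was called. At ZT4, the CTR β library of the later run was high for Per3 (0.970), with 6.81 CPM against 1.72 to 1.87 CPM, and the CTR α library of that run was high for Nr1d2 (0.859), with 67.7 CPM against 37.0 to 41.3 CPM. The same α library held 31.5 CPM of lymphocyte markers (0.910), against 0.983 to 3.72 CPM. Ciart was low in the ZT4 DOX α library of the later run (0.855), with 0.0838 CPM against 0.432 to 0.491 CPM.

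The ZT4 DOX β library of the earlier run was high for Cry1 (0.865), with 27.5 CPM against 16.6 to 18.0 CPM, for Col27a1 (0.882), with 17.2 CPM against 0.700 to 2.65 CPM, and for Olfm3 (0.836), with 1.56 CPM against 0.208 to 0.430 CPM. It also held 397.2 CPM of stellate markers against 1.12 to 52.9 CPM (0.869), and 18.2 CPM of endothelial markers against 11.6 to 12.2 CPM (0.903). The part of these cells in the 3 genes was not tested gene by gene. The ZT4 DOX α library of that run was high for Olfm3 (0.840), with 83.3 CPM against 26.7 to 35.8 CPM, and for Slc41a3 (0.936), with 8.73 CPM against 4.77 to 5.03 CPM. The ZT16 DOX β library of that run was high for Olfm3 (0.842), with 0.649 CPM against 0 to 0.103 CPM.

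The ZT16 DOX β library of the later run held the most acinar markers (0.838), 676.6 CPM against 16.1 to 122.9 CPM, and the most macrophage markers (0.910), 1771 CPM against 216.5 to 355.7 CPM.

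Between DOX and CTR the change over time differed for Gm26619 by -2.07 and for Gm10260 by -2.07 (edgeR adjusted p = 0.00541 for each). Gm10260 had 34.9 and 48.0 CPM in ZT16 CTR α libraries and 11.5 and 24.6 CPM in ZT4 CTR α libraries, with the earlier run first.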

How the results depend on the processing

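Among the named genes, each followed in the comparison that named it, no call reversed its direction under any alternative. The directions of the other calls were not followed. Over all 16 libraries (1832 genes called), other settings gave 2785 with DESeq2, 649 in the earlier and 7 in the later run alone, 1154 in CTR and 5 in DOX libraries alone, and 1031 (without the ZT16 CTR β library of the earlier run) to 2194 with single libraries left out. Without the replicate block 1277 were called. In α cells (52), they gave 127 without a filter, 383 with DESeq2, 14 without the replicate block, 1305 in the earlier and 12 in the later run, 89 in CTR libraries, 4, 3 and 3 with stellate, macrophage or acinar markers as a covariate, and 2 to 83 without single libraries. In β cells (471), they gave 727 without a filter, 1793 with DESeq2, 103 without the replicate block, 16 in the earlier and 0 in the later run, 0 in DOX libraries (where 1142 had an unadjusted edgeR p under 0.05), 85 with stellate markers as a covariate, and 7 to 466 without single libraries. The β minus α difference (0) had 1 call without a filter, 57 with DESeq2 and 0 to 1 without single libraries. The DOX minus CTR difference (2) had 20 with DESeq2, 0 without the replicate block, 0 in the earlier and 12 in the later run, and 2 to 5 without single libraries. The difference from ZT20 over ZT8 (37) had 219 with DESeq2, 18 without the replicate block and 14 to 59 without single libraries. The causes of these shifts were not tested, except that single runs, treatments or libraries left out leave fewer samples. With limma-voom the counts were 2409 over all libraries, 0 for β minus α, 2 for DOX minus CTR and 151 for the difference from ZT20 over ZT8, and with each α and β library of 1 time, treatment and run joined as a random block they were 1254, 6, 2 and 23, with block correlations of 0.253, 0.333, 0.251 and 0.186. Under that block Col27a1, Acadl, Pnpla2, Cdkn1b, Me1, Syt7, Klf4, Tsc22d3, Mt2, Cox6c, Atp5c1, Sstr3 and Nr3c1 lost their calls over all libraries (adjusted p of 0.0501 to 0.102), and Usp2 (0.0459) and Ins1 (0.0495) gained one. Halved counts, tried because small whole counts were nearly all even, gave 2027, 65 and 553 calls over all, α and β libraries. A block set within each condition gave 1936, 59 and 437 calls over all, α and β libraries.

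Depth limits the low genes: Npas2 at ZT16 and Olfm3 in β cells stood near or under 1 CPM, where few reads set each value.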

Other observations

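Of 20 genes of G2 and mitosis, 1 was called in β cells, against 1.55% of all genes called higher there. Cenpf, a kinetochore protein, rose by 1.34 (edgeR adjusted p = 0.0435). All 20 had a positive log2 fold change in β cells, with a median of 0.50, but 11 of 20 did in CTR β libraries alone (median 0.03). Cenpf had 3.17 and 8.20 CPM in ZT16 CTR and 26.6 and 21.7 in ZT16 DOX β libraries, against 2.22 and 2.75 in ZT4 CTR and 9.44 and 7.78 in ZT4 DOX β libraries. The treatments stood further apart than the times. Mki67, a mark of cycling cells, had 6.55 and 21.4 CPM in ZT16 CTR and 90.9 and 54.3 in ZT16 DOX β libraries, against 9.17 and 8.21 in ZT4 CTR and 34.6 and 18.0 in ZT4 DOX β libraries, and missed the threshold (1.12, adjusted p = 0.136). Over both cell types, all 20 were positive in DOX libraries alone (median 0.59) and 7 of 20 in CTR libraries alone (median -0.15). That difference was tested only per gene, and none of these genes passed. Of 20 S-phase genes none passed over all libraries, and the median was -0.09.

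Among receptors, Adra2a, the adrenergic receptor that restrains insulin release, fell by 0.60 ± 0.12 (adjusted p = 0.00954). In β cells it had 153.7 and 178.6 CPM in ZT16 CTR and 180.6 and 176.9 in ZT16 DOX libraries, against 226.6 and 221.7 in ZT4 CTR and 235.8 and 260.5 in ZT4 DOX libraries, with no overlap. Sstr3, a somatostatin receptor, rose by 0.34 ± 0.10, and Nr3c1, the glucocorticoid receptor, by 0.21 ± 0.06. Of 15 receptor genes tested, 2 rose and 1 fell. Of 15 autophagy genes only Tfeb, a regulator of lysosome genes, passed, rising by 0.56 ± 0.12. Of 16 interferon-induced genes only Stat2 passed, rising by 0.45 ± 0.13. Among all genes 5.29% were called higher and 5.86% lower, so the autophagy and interferon counts are near that background. In β cells Wipi1, of the early autophagosome, rose by 0.72 (edgeR adjusted p = 0.0347), with 1.55% of all genes called higher there.

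Kl, the klotho gene, had 19.9 and 22.7 CPM in ZT16 CTR and 27.4 and 36.2 in ZT16 DOX β libraries, against 32.7 and 38.3 in ZT4 CTR and 51.2 and 73.0 in ZT4 DOX β libraries. It was lower at ZT16 in 4 of 4 β pairs. Its α means were 107.8 ± 7.39 CPM at ZT16 and 101.5 ± 27.3 CPM at ZT4 (SD, n = 4), and its β minus α difference was not called (adjusted p = 0.317).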
